A study of Caenorhabditis elegans with 16 samples.

Results

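The epidermal antimicrobial peptide genes of *Caenorhabditis elegans* examined here were 10 genes taken by name from the 47029 genes of the deposited count table: 7 of the nlp (neuropeptide-like protein) family, nlp-27, nlp-28, nlp-29, nlp-30, nlp-31, nlp-33 and nlp-34, and 3 of the cnc (caenacin) family, cnc-1, cnc-2 and cnc-4. PolyA RNA was sequenced from whole adult worms of strain SS104, which carries glp-4(bn2), a temperature-sensitive mutation that leaves the animals sterile when they grow up warm. Every group, the control included, carried this mutation, was kept at 15 °C, was shifted to 24 °C as larvae, fed on *Escherichia coli* OP50 and was harvested on day 3 of adulthood. From the last larval stage the worms fed on lawns that were left untreated (control) or overlaid with Curcumin Phytosome at 5 mg/mL (curcumin bound in a lipid complex), with sulforaphane at 0.625 mg/mL, or with both at these doses (combination). Each of the 4 groups held 4 replicates, which the series' design text calls independent and biological. No vehicle is named for the untreated lawns, and carrier effects and compound effects cannot be told apart. The treated groups were all compared with the same 4 control libraries.

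These genes encode small secreted peptides, most of them rich in glycine and tyrosine, that the worm's epidermis makes as part of its innate defence. In *C. elegans* nlp-29, the gene most used as a reporter of this response, is known to be induced by fungal infection and by wounding through a p38 kinase route (TIR-1, NSY-1, SEK-1, PMK-1) and the STAT-like factor STA-2. High osmolarity is also known to induce it, largely without that route. The caenacin gene cnc-2 is known to answer to fungal infection through a TGF-beta route (the ligand DBL-1 and the signal transducer SMA-3).

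All 10 genes lie on chromosome V (build WBcel235), and each is a short gene of 2 exons and 1 intron in the Ensembl annotation, coding for 59 to 75 amino acids. The nlp cluster runs from 3978825 to 3989770 in the order nlp-34, nlp-31, nlp-30, nlp-29, nlp-28, nlp-27, with nlp-34 on the minus strand and the others on the plus strand. It spans 10946 bases and held no other gene of the count table. The 3 caenacin genes lie between 1444044 and 1450183, in the order cnc-1, cnc-4, cnc-2, with cnc-5 and cnc-3 between them. nlp-33 lies alone at 11147346 to 11147737. None of the 10 overlapped another gene of the table. The cluster genes are similar copies, and the deposited protein annotation of nlp-27 names the same database entry as that of nlp-30. How reads matching several copies were counted is not given in the sources used here, so the split of reads among nlp-27, nlp-28, nlp-29, nlp-30 and nlp-31 is uncertain.

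Libraries held 14315538 to 19964755 counted reads. In these whole-worm libraries the epidermal markers were partly present: lin-26, elt-3 and col-19 had mean levels of 34.5, 51.7 and 55.6 CPM (counts scaled to the TMM-adjusted library size), whereas the collagen genes dpy-7 and rol-6 had at most 3 reads in any library. Markers of intestine, body wall muscle, pharynx, neurons and germline were all detected as well. The 10 genes together held 100.2 ± 13.6 CPM before TMM scaling in control worms, 124 ± 3.61 after curcumin, 104 ± 3.87 after sulforaphane and 179 ± 37.8 after both (SD, n = 4). In bulk RNA, a changed share of epidermal cells and a changed amount of RNA per cell cannot be told apart.

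Among untreated worms the genes differed widely in level, which is given per length as the authors' FPKM (fragments scaled by gene length and library size). nlp-27 was highest at 138 ± 24.1 FPKM (SD, n = 4), above 95.3% of the 14328 genes tested. nlp-28 followed at 47.0 ± 11.3 FPKM and cnc-4 at 38.5 ± 3.67, and their replicates overlapped. cnc-2 at 21.0 ± 2.66 FPKM and nlp-34 at 19.04 ± 2.97 also overlapped. nlp-29 had 9.24 ± 2.39 FPKM, nlp-31 had 7.47 ± 2.71 and nlp-33 had 5.09 ± 0.659, each overlapping the next. cnc-1 at 0.751 ± 0.622 FPKM and nlp-30 at 0.623 ± 0.220 overlapped at the bottom. The steps from nlp-27 to nlp-28, from cnc-4 to cnc-2, from nlp-34 to nlp-29 and from nlp-33 to cnc-1 were without overlap.

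**Figure D1:**
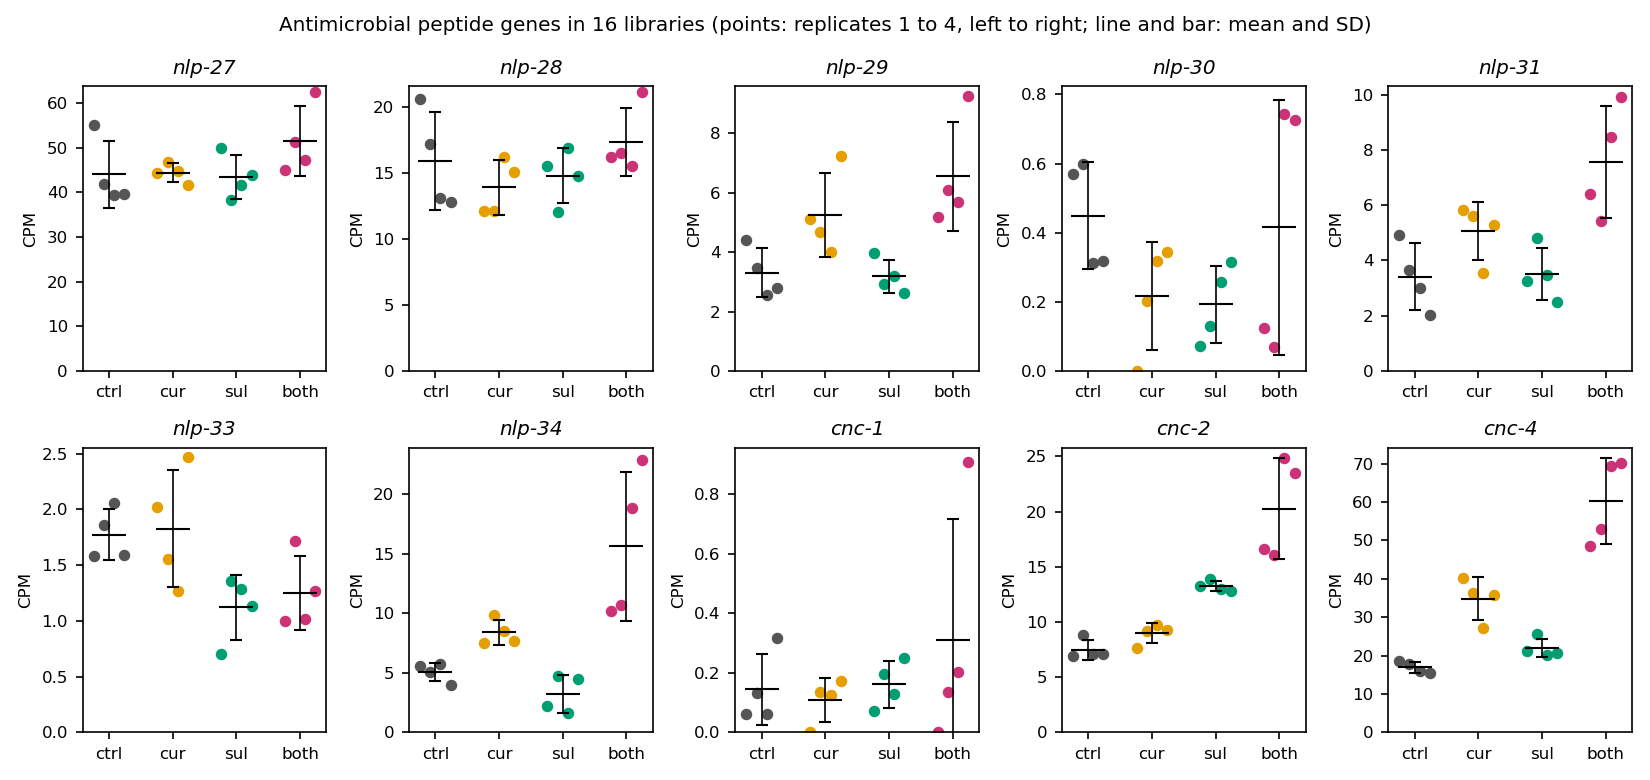
Level of each gene in CPM (y axis, linear from 0) in the 4 replicates of each group, with the mean and SD: ctrl is control, cur curcumin, sul sulforaphane and both the combination. In nlp-29, nlp-31, nlp-34, cnc-2 and cnc-4 all 4 combination replicates lie above all 4 control replicates, as in 11.7% of all tested genes. In nlp-27 and nlp-28 the 4 groups overlap.

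Of the 10 genes, 8 had at least 10 reads in all 16 libraries and were tested. nlp-30 and cnc-1 fell under the filter on low counts. Tests were edgeR quasi-likelihood F tests over all 16 libraries, with p-values adjusted over the 14328 genes and calls made under 0.05.

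The comparison of the combination with control asked which of these genes both compounds change together. Of the 8 tested genes 5 rose and none fell (none was lower at an unadjusted p under 0.05), where 12.1% of all tested genes were called higher and 23.1% were called in all. They were the caenacin genes cnc-4 and cnc-2 and the nlp-cluster genes nlp-34, nlp-31 and nlp-29. The median log2 change of the 8 genes was 1.07, against -0.02 over all genes tested, and this list was chosen with earlier results known.

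cnc-4 had 18.6, 17.8, 16.0 and 15.5 CPM in control replicates 1 to 4 and 48.5, 53.0, 69.3 and 70.2 CPM with the combination. The lowest combination library lay above the highest control by a wide margin. The gene rose 3.55-fold (log2 1.83, SE 0.13, edgeR adjusted p 2.7e-11). cnc-2 had 6.95, 8.86, 7.11 and 7.07 CPM in the control and 16.6, 16.1, 24.9 and 23.5 CPM with the combination. Again the groups did not overlap, and combination replicates 3 and 4 stood above replicates 1 and 2. This was a 2.70-fold rise (log2 1.44, SE 0.14, edgeR adjusted p 1.02e-08).

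In the nlp cluster, nlp-34, an infection-inducible gene of the epidermis, had 5.56, 5.06, 5.74 and 4.01 CPM in the control and 10.2, 10.7, 18.8 and 22.9 CPM with the combination. Replicates 3 and 4 again were the high ones, and the groups did not overlap. It rose 3.07-fold (log2 1.62, SE 0.25, edgeR adjusted p 2.26e-05). nlp-31, whose peptide is known to act against fungi and bacteria in vitro, had 4.93, 3.66, 2.99 and 2.04 CPM in the control and 6.42, 5.41, 8.46 and 9.92 with the combination. The groups did not overlap, though the gap was narrow. It rose 2.22-fold (log2 1.15, SE 0.24, edgeR adjusted p 0.000702). nlp-29 had 4.42, 3.46, 2.56 and 2.80 CPM in the control and 5.17, 6.10, 5.68 and 9.25 with the combination, the highest value being that of replicate 4. It rose 1.98-fold (log2 0.99, SE 0.22, edgeR adjusted p 0.00138).

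The other end of the nlp cluster gave no call. nlp-28 had a log2 change of 0.12 (95% interval -0.18 to 0.43, edgeR adjusted p 0.606), with 12.8 to 20.6 CPM in the control and 15.5 to 21.1 with the combination. nlp-27, the highest of these genes, had 55.1, 42.0, 39.4 and 39.8 CPM in the control and 45.0, 51.2, 47.2 and 62.5 with the combination, and the groups overlapped. Its log2 change was 0.23 (95% interval 0 to 0.45, edgeR adjusted p 0.142), and without control replicate 1, its highest control library, 0.34 (adjusted p 0.0152). nlp-33 had a log2 change of -0.51 (95% interval -1.11 to 0.09, edgeR adjusted p 0.235).

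**Figure D2:**
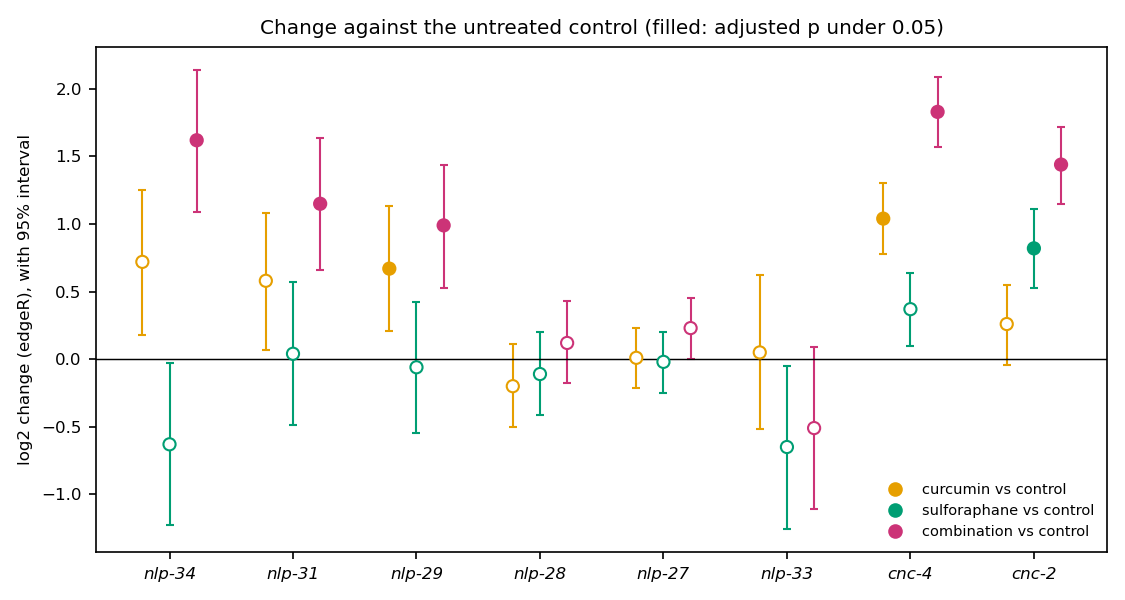
Log2 change against control (y axis) of the 8 tested genes in each treated group, with 95% intervals; filled points have an edgeR adjusted p under 0.05. The combination is filled in 5 genes, curcumin in cnc-4 and nlp-29, and sulforaphane in cnc-2.

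Replicates 3 and 4 of the combination carried part of the size of these rises. Replicate 4 was the highest combination library for 6 of the 8 tested genes, and replicates 3 and 4 were the top pair for 4 of the 8. With both left out, an alternative chosen after seeing these values, the same 5 genes were called. nlp-34 then had a log2 change of 1.03 in place of 1.62 (adjusted p 0.00432), the largest shift among them. cnc-4 went to 1.58, cnc-2 to 1.13, nlp-31 to 0.80 (adjusted p 0.0445) and nlp-29 to 0.77 (adjusted p 0.0307).

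Curcumin against control asked what the lipid-complexed compound does alone. It raised 2 of the 8 tested genes, cnc-4 and nlp-29, where 6.87% of all tested genes were called higher, 7.71% lower and 14.6% in all. The median log2 change of the 8 was 0.42, against -0.01 over all genes. cnc-4 reached 40.2, 36.2, 27.1 and 35.8 CPM, above every control library, as in 7.72% of all tested genes. This was a 2.05-fold rise (log2 1.04, SE 0.13, edgeR adjusted p 1.03e-06). nlp-29 had 5.10, 4.67, 3.99 and 7.23 CPM with curcumin, and its lowest value lay below the highest control. Its log2 change of 0.67 (SE 0.22) passed narrowly, with an edgeR adjusted p of 0.0432. It lost the call in 8 of the 16 fits that left out 1 library each, those without control replicate 2, 3 or 4, curcumin replicate 1, 2 or 4, sulforaphane replicate 3 or combination replicate 2. In these 8 the log2 change ran from 0.47 to 0.72 and the adjusted p from 0.0514 to 0.219, which is the value without curcumin replicate 4. The call was also lost with library size alone (adjusted p 0.0523) and with only the groups compared (0.0555).

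The cluster neighbours nlp-34 and nlp-31 were not called under curcumin, and for nlp-34 this depended on the settings. nlp-34 had 7.53, 9.82, 8.55 and 7.69 CPM, each above all 4 controls, as in 7.72% of all tested genes. Its log2 change was 0.72 (95% interval 0.18 to 1.25, edgeR adjusted p 0.0707). It was called in 4 of 7 other settings: with all genes of at least 1 read kept (adjusted p 5.89e-05), only the groups compared (0.00324), the replicate block (0.0401), and without combination replicates 3 and 4 (0.0235). It was also called without sulforaphane replicate 3 (adjusted p 0.047) and without combination replicate 4 (0.0467), and its log2 change was 0.71 to 0.74 in these 6 fits. nlp-31 had a log2 change of 0.58 (95% interval 0.07 to 1.08, edgeR adjusted p 0.135), and it was called without control replicate 1 (0.81, adjusted p 0.0345) and with all genes of at least 1 read kept (0.59, adjusted p 0.0277). cnc-2 was at 0.26 (95% interval -0.04 to 0.55, adjusted p 0.29). For nlp-27, nlp-28 and nlp-33 the log2 changes were 0.01, -0.20 and 0.05, with adjusted p-values of 0.97, 0.473 and 0.95.

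Sulforaphane against control gave 1 call among the 8 genes, a rise of cnc-2, where 4.33% of all tested genes were called higher, 2.37% lower and 6.71% in all. Of all called genes, 64.6% were higher, or 53.4% when libraries were scaled by size alone. cnc-2 had 13.3, 13.9, 13.0 and 12.8 CPM with sulforaphane, a tight group above every control, as in 7.83% of all tested genes. The rise was 1.77-fold (log2 0.82, SE 0.14, edgeR adjusted p 0.000275). cnc-4 had 21.2, 25.5, 20.2 and 20.8 CPM, also above every control, but its log2 change of 0.37 (95% interval 0.10 to 0.64) missed the threshold with an edgeR adjusted p of 0.098. It was called with all genes of at least 1 read kept (adjusted p 0.00259), with only the groups compared (0.0225) and without combination replicates 3 and 4 (0.0442).

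No nlp gene was called for sulforaphane by edgeR with the filter on low counts or by DESeq2, and nlp-33 and nlp-34 had an unadjusted p under 0.05. nlp-34 split into a low pair, replicates 1 and 3 at 2.19 and 1.61 CPM, and a pair at 4.73 and 4.52 CPM inside the control range. Its log2 change was -0.63 (95% interval -1.23 to -0.03, edgeR adjusted p 0.236), and it was called lower when all genes with at least 1 read were kept (-0.61, adjusted p 0.012). nlp-33, an nlp gene outside the cluster, had 0.707, 1.36, 1.28 and 1.13 CPM against 1.58, 1.86, 2.06 and 1.59 in the control. These groups did not overlap, and 5.97% of all tested genes lay below every control in the same way. The log2 change of nlp-33 was -0.65 (95% interval -1.26 to -0.05, edgeR adjusted p 0.227) on 69 reads against 111. nlp-27, nlp-28, nlp-29 and nlp-31 had log2 changes of -0.02, -0.11, -0.06 and 0.04.

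A direct comparison of curcumin with sulforaphane tested where the single compounds differ. It called 4 of the 8 genes, 3 higher with curcumin and 1 lower, where 18.1% of all tested genes were called, 7.62% higher and 10.5% lower. nlp-34 was 2.55-fold higher with curcumin (log2 1.35, SE 0.28, edgeR adjusted p 0.000762). cnc-4 was 1.59-fold higher (log2 0.67, SE 0.12, edgeR adjusted p 0.000246). nlp-29 was 1.66-fold higher (log2 0.73, SE 0.22, edgeR adjusted p 0.0224). That call was lost without curcumin replicate 4 (0.52, adjusted p 0.146), sulforaphane replicate 2 (0.69, adjusted p 0.0613) or sulforaphane replicate 4 (0.65, adjusted p 0.0835). cnc-2 went the other way, with a log2 difference of -0.57 (SE 0.14, edgeR adjusted p 0.00358). cnc-4 and cnc-2, which lie in the same stretch of 6140 bases, thus differed between the single compounds in opposite directions.

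**Figure D3:**
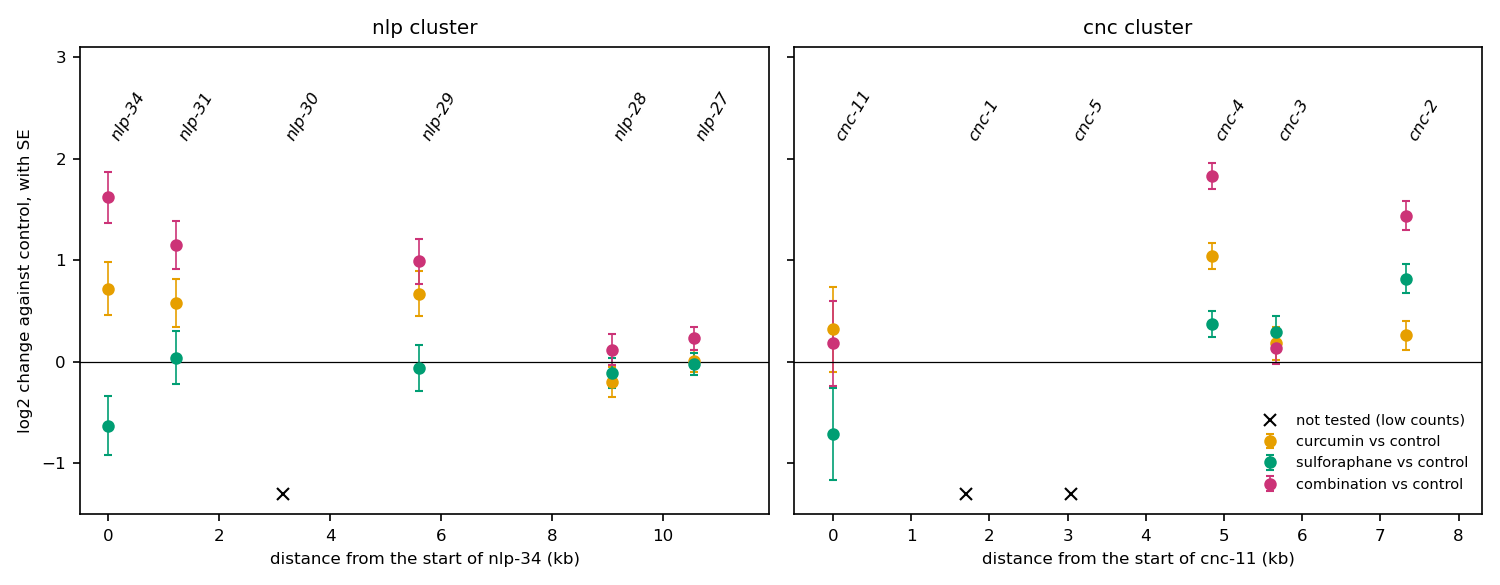
Log2 change against control with its SE (y axis) for the genes of the nlp cluster (left) and the cnc cluster (right), by distance in kb from the start of nlp-34 or of cnc-11, the cnc gene just before cnc-1; crosses mark genes with too few reads to test. In the nlp cluster the combination values fall from 1.62 at nlp-34 to 0.12 at nlp-28, and in the cnc cluster cnc-3, between cnc-4 and cnc-2, stays at 0.14.

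Adding sulforaphane to curcumin called 3 of the 8 genes, all higher in the combination, where 4.65% of all tested genes were called higher, 2.67% lower and 7.32% in all. They were cnc-2 (log2 1.18, SE 0.13, edgeR adjusted p 8.58e-07), cnc-4 (log2 0.79, SE 0.12, adjusted p 4.51e-05) and nlp-34 (log2 0.90, SE 0.24, adjusted p 0.0182). The call of nlp-34 was lost without curcumin replicate 1 (0.84, adjusted p 0.0579), curcumin replicate 4 (0.87, adjusted p 0.059), combination replicate 3 (0.79, adjusted p 0.0753) or combination replicate 4 (0.66, adjusted p 0.112). It was lost as well with the DESeq2 Wald test (0.89, adjusted p 0.0756), and without combination replicates 3 and 4 together the difference was 0.32 (edgeR adjusted p 0.576). For nlp-29 the combination was not distinguished from curcumin (log2 0.32, 95% interval -0.11 to 0.75, edgeR adjusted p 0.472).

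Adding curcumin to sulforaphane called 5 genes, all higher in the combination, where 9.53% of all tested genes were called higher and 18.8% in all. They were nlp-34 (log2 2.25, SE 0.27, edgeR adjusted p 5.5e-07), cnc-4 (1.46, SE 0.12, adjusted p 1.53e-09), nlp-31 (1.11, SE 0.24, adjusted p 0.00132), nlp-29 (1.05, SE 0.22, adjusted p 0.00106) and cnc-2 (0.61, SE 0.13, adjusted p 0.00108). Without combination replicates 3 and 4 together the calls of nlp-31 (0.76, adjusted p 0.0749) and cnc-2 (0.30, adjusted p 0.126) were lost.

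The interaction contrast tested departure of the combination from the summed log2 changes of both single treatments. All 8 tested genes had point estimates above 0, from 0.09 for nlp-33 to 1.54 for nlp-34, with a median of 0.40; 53.1% of all tested genes were above 0. Without combination replicates 3 and 4 the values ran from 0.05 for cnc-2 to 0.95 for nlp-34, and none was called by edgeR (1 at an unadjusted p under 0.05). Only nlp-34 was called among the 8 (SE 0.38, edgeR adjusted p 0.0463), where 0.377% of all tested genes were called higher and 0.991% in all. This call was lost in 12 of the 16 fits leaving out 1 library, all except those without sulforaphane replicate 2 or 4 or combination replicate 1 or 2. In these 12 fits its value ranged from 1.29 without combination replicate 4 to 1.61 without curcumin replicate 2, and the adjusted p from 0.0506 to 0.121. For cnc-4 and cnc-2 the interaction was 0.42 (95% interval 0.06 to 0.78, edgeR adjusted p 0.427) and 0.36 (-0.04 to 0.75, adjusted p 0.631).

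Ratios of read counts within a library show the unequal changes inside each cluster without any scaling between libraries. For every 100 reads of nlp-28 and nlp-27 there were 19.7 ± 2.02 reads of nlp-34, nlp-31 and nlp-29 in control worms, 32.2 ± 4.08 after curcumin, 17.5 ± 5.02 after sulforaphane and 42.8 ± 10.1 after both (SD, n = 4). The lowest curcumin library, at 26.4, and the lowest combination library, at 32.8, were above the highest control at 21.5. For every 100 reads of cnc-4 there were 44.3 ± 5.21 reads of cnc-2 in control worms, 26.6 ± 6.99 after curcumin, 60.8 ± 4.39 after sulforaphane and 33.5 ± 2.33 after both (SD, n = 4). The sulforaphane libraries were all above the control ones, and the curcumin and combination libraries all below. These gene groupings were chosen after the values were seen and were not tested.

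**Figure D4:**
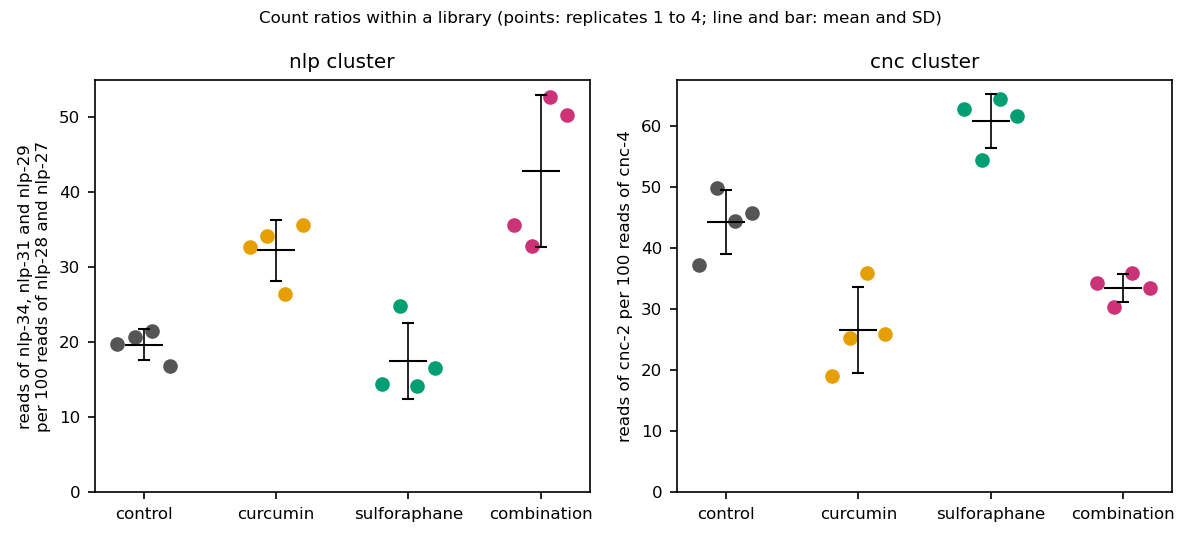
Count ratios within each library (y axes, linear from 0) for the 4 replicates of each group, with mean and SD: reads of nlp-34, nlp-31 and nlp-29 per 100 reads of nlp-28 and nlp-27 (left), and reads of cnc-2 per 100 reads of cnc-4 (right). On the left curcumin and the combination sit above the control, and on the right sulforaphane sits above it and both other treatments below.

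The genes outside the test had few reads. nlp-30, in the middle of the nlp cluster, had 28 reads over the 4 control libraries (95% Poisson interval 18.6 to 40.5), 14 after curcumin (7.65 to 23.5), 12 after sulforaphane (6.20 to 21.0) and 26 after both (17.0 to 38.1). The combination reads were uneven, with 2, 1, 11 and 12 in replicates 1 to 4. cnc-1 had 9 reads in control worms (4.12 to 17.1), 7 after curcumin (2.81 to 14.4), 10 after sulforaphane (4.80 to 18.4) and 20 after both (12.2 to 30.9), of which 15 came from replicate 4. These intervals cover counting error only.

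Other genes of this defence were examined as lists chosen with earlier results known. Of the 8 other cnc genes 6 were tested. For curcumin none was called by edgeR or DESeq2 (2 at an unadjusted edgeR p under 0.05), and for sulforaphane none by either (0 unadjusted). With the combination 2 rose, where 12.1% of all tested genes were called higher. Named here after their values were seen, they were cnc-6 (log2 1.55, SE 0.35, edgeR adjusted p 0.00143) and cnc-10 (0.91, SE 0.27, adjusted p 0.0149). That count was 1 without control replicate 1, 1 without combination replicate 4, and 0 without combination replicates 3 and 4. The lowest library of cnc-6 was at 0.5327 CPM in the control and 0.3851 with sulforaphane, against 0.9501 with curcumin and 1.371 with the combination. Its control libraries alone did not meet the filter on low counts, which it passed through treated groups where it was higher. Its call with the combination carries that limit. cnc-3, which sits between cnc-4 and cnc-2, was at 0.14 on the log2 scale (SE 0.16, edgeR adjusted p 0.616). Of nlp-24, nlp-25, nlp-26 and nlp-32, only nlp-24 and nlp-26 were tested, and neither was called against control by edgeR or DESeq2, nor had an unadjusted p under 0.05.

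The fungus-induced peptide genes (fip and fipr) are a further group of small secreted peptides. Of 36 genes 14 were tested, and 4 rose after curcumin, 4 after sulforaphane and 9 after both, where 6.87%, 4.33% and 12.1% of all tested genes were called higher. None was called lower in the 3 comparisons by edgeR, and 1 was lower with curcumin and with sulforaphane under some alternatives. The median log2 changes of the 14 were 0.48, 0.16 and 1.03. fipr-24 had 2.86 ± 0.942 CPM in control worms, 5.51 ± 1.08 after curcumin, 12.1 ± 2.90 after sulforaphane and 18.96 ± 4.96 after both (SD, n = 4), log2 changes of 0.95 (edgeR adjusted p 0.00828), 2.07 (adjusted p 7.9e-07) and 2.73 (adjusted p 1.01e-09). fip-6 rose by 0.98 on the log2 scale after curcumin (edgeR adjusted p 0.00763) and by 1.68 after both (adjusted p 8.41e-06). The other genes called with curcumin were fipr-22 and fipr-26, and with sulforaphane fipr-1, fipr-23 and fipr-26, named after their values were seen. fipr-1 had the largest change of the list, from 0.253 ± 0.159 CPM in the control to 9.63 ± 1.46 with the combination (SD, n = 4). Its control libraries held only 0.0666 to 0.437 CPM, so it passed the filter on low counts through treated groups where it was high. The place of fipr-1 among the genes called after sulforaphane and after both carries that limit. fipr-26 had 0.4365 to 2.653 CPM in the control and at least 1.947 CPM in every treated library. Its control libraries alone did not meet the filter, which it also passed through treated groups where it was higher. Its calls in all 3 comparisons with control carry the same limit. Several fipr genes are similar copies, so their counts are uncertain to that extent.

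The upstream routes were examined at the RNA level. Of the 14 genes of the p38 and STAT route 2 rose with curcumin, none was called with sulforaphane by edgeR or DESeq2 (1 at an unadjusted edgeR p under 0.05) and 3 rose with the combination, against the same shares of all tested genes. dcar-1, the receptor that senses epidermal damage, rose from 73.1 ± 5.43 to 87.7 ± 10.1 CPM with curcumin (log2 0.26, edgeR adjusted p 0.0172) and to 95.6 ± 4.62 with the combination (log2 0.39, adjusted p 0.00035; SD, n = 4). nipi-3, a kinase-like gene needed for nlp-29 induction, rose by 0.26 with curcumin (log2, edgeR adjusted p 0.00949) and 0.56 with the combination (adjusted p 7.85e-07). sek-1, the kinase above PMK-1, rose by 0.31 with the combination (log2, edgeR adjusted p 0.0156) and is named after its value was seen. Without curcumin replicate 1 the curcumin count was 1. Of the 6 genes of the TGF-beta route none was called by the main test with either single compound by edgeR or DESeq2 (0 unadjusted). With the combination 1 was called, and it was lower, where 11% of all tested genes were called lower. This was sma-4, a signal transducer gene other than the sma-3 named above. It fell by 0.40 on the log2 scale (SE 0.07, edgeR adjusted p 5.9e-05). The combination count was 2 without control replicate 2, curcumin replicate 1 or curcumin replicate 4, and 2 with library size alone or with the replicate block. dbl-1 and sma-3, the genes named above for cnc-2, were at -0.32 and -0.23 with the combination. Neither was called (edgeR adjusted p 0.0976 and 0.0769). Of the 6 furrow collagens, whose loss is known to raise nlp-29, dpy-8 and dpy-9 were tested and neither was called against control by edgeR or DESeq2 (0 unadjusted).

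Genes of the osmotic stress response rose in the same libraries. Of 5 genes 4 were tested, of which 3 rose after curcumin, 2 after sulforaphane and 3 after both, again against 6.87%, 4.33% and 12.1% of all tested genes. gpdh-1, a glycerol-making enzyme gene induced by high osmolarity, had 12.1 ± 2.43 CPM in control worms and, in the order curcumin, sulforaphane and both, 21.9 ± 5.71, 19.1 ± 1.49 and 49.6 ± 7.61 (SD, n = 4). Its log2 changes were 0.84 (edgeR adjusted p 0.000379), 0.65 (adjusted p 0.0113) and 2.03 (adjusted p 2.15e-10). hmit-1.1, a myo-inositol transporter gene, had 15.0 ± 1.56 CPM in control worms and, in the same order, 56.4 ± 5.12, 44.7 ± 6.03 and 80.1 ± 8.22 (SD, n = 4). gpdh-2, named after its values were seen, rose with curcumin (log2 0.64, edgeR adjusted p 5.6e-07) and the combination (1.21, adjusted p 4.51e-12), and had 225 ± 15.3 CPM with sulforaphane against 219 ± 22.8 in the control (SD, n = 4). Their part in the changes of the peptide genes was not tested.

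**Figure D5:**
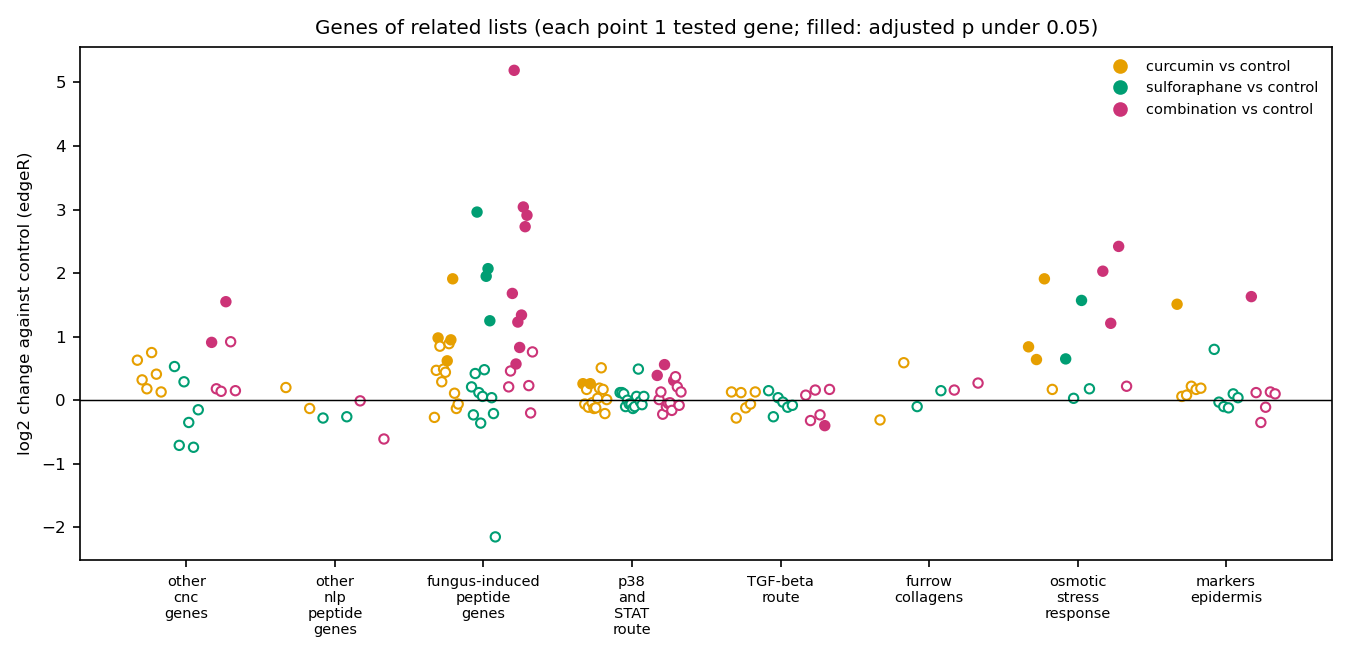
Log2 change against control (y axis) of every tested gene of each related list, by treatment; filled points have an edgeR adjusted p under 0.05. The filled points of the fungus-induced peptide and osmotic stress lists lie above 0 under each treatment, and those of the p38 and STAT route reach at most 0.56.

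Markers of tissues were set beside these results. Of all tested genes, 6.87% were called higher and 7.71% lower with curcumin, and 4.33% and 2.37% with sulforaphane. With the combination these shares were 12.1% and 11%. The summed epidermal markers ranged from 125 to 159 CPM in control worms, 148 to 182 after curcumin, 141 to 152 after sulforaphane and 124 to 158 after both; elt-3 is also in the p38 list and dpy-7 among the furrow collagens. Of the 8, 6 were tested, and bli-1, a cuticle collagen gene named after its values were seen, was called higher with curcumin and with the combination (edgeR adjusted p 0.0454 and 0.0195) on 3 to 23 reads a library. Of the 7 intestinal markers 6 fell with curcumin and 7 with the combination, and act-5, an intestinal actin gene, rose with sulforaphane (log2 0.58, edgeR adjusted p 0.000154). Their summed level was 1122 to 1239 CPM in control worms, 798 to 875 after curcumin, 1248 to 1400 after sulforaphane and 716 to 778 after both. None of the 4 body wall muscle markers fell, and 1 rose with curcumin and 3 with the combination. With the combination 1 of the 5 neuronal markers rose, snb-1 (log2 0.25, edgeR adjusted p 0.00344), and 1 of the 4 pharyngeal ones fell, pha-4 (log2 -0.47, adjusted p 0.000162). None of the 6 germline markers was called against control by edgeR or DESeq2 (0 unadjusted). The part of tissue composition in the changes of the peptide genes was not tested.

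The genes whose profile over the 16 libraries lay nearest to that of nlp-29 came from other families. Likeness was the root mean square difference of log2 CPM after centring each gene on its mean. It was 0.223 for dhs-25, a short-chain dehydrogenase gene, 0.242 for ZK228.4, 0.249 for pgp-9, an ABC transporter gene, 0.252 for nhr-11, a nuclear hormone receptor gene, and 0.272 for nas-11, an astacin protease gene. The median over all tested genes was 0.566, and the SD of nlp-29 itself was 0.527. Among the peptide genes nlp-31 came nearest at 0.310, ranking 36 of all tested genes, and cnc-4 followed at 0.389, ranking 393. nlp-27 was at 0.407, ranking 561, nlp-28 at 0.456, ranking 1485, and cnc-2 at 0.554, ranking 6463. nlp-27 and nlp-28 ranked this near although neither was called against control in the main test. nlp-33 at 0.632 and nlp-34 at 0.678 lay farther from nlp-29 than the median gene. The measure counts the size of a change as well as its direction.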

How the data were processed

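PolyA RNA-seq of 16 whole-worm libraries was analysed from 2 tables of the series. The authors deposited raw read counts per gene and FPKM values; the submitters' processing notes name HISAT2 2.0.5, StringTie 1.3.3b, featureCounts 1.5.0-p3, DESeq2 1.20.0 and build WBcel235, without roles. Strand and multi-mapping settings are not given in the sources used here. The deposited FPKM equalled count over gene length over 1 depth per library, 0.95 to 1.07 times the total count.

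Counts were tested in edgeR 4.0.16 (R 4.3.3) with filterByExpr (minimum count 10, minimum total 15), TMM and 1 mean per group, and Benjamini-Hochberg adjustment over 14328 genes at 0.05. SE is the log2 change over the square root of F. CPM uses TMM-adjusted library sizes, and log2 CPM a prior count of 2. The procedure was checked on simulated counts. Alternatives were DESeq2 1.42.0, other scalings and filters, a replicate block, and leaving libraries out.

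All 10 genes are named. Of each list up to 2 called genes per direction and comparison with a mean of at least 5 CPM are named by rule, plus the 5 genes nearest to nlp-29; cnc-3, cnc-6, cnc-10, fipr-1, fipr-22, fipr-23, fipr-26, sek-1, gpdh-2 and bli-1 are named outside it, all but the cluster neighbour cnc-3 after their values were seen. Members and lists were chosen with earlier results of these data known. Gene starts and ends equalled Ensembl release 115 except the start of cnc-2.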

Additional observations from a re-analysis of the deposited data

Results flagged for a closer look

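Among the 40 groups of 4 replicates of the 10 genes, 2 held a library far from the other 3 by Dixon's gap criterion, and chance flags about 1 in 20 groups. nlp-27 in control replicate 1 was at 55.1 CPM, against 39.4 to 42.0 CPM in the other controls. cnc-2 in control replicate 2 was at 8.86 CPM, against 6.95 to 7.11 CPM in the others. The effect of curcumin on nlp-34 differed with and without sulforaphane: the interaction was 1.54 on the log2 scale (SE 0.38, edgeR adjusted p 0.0463), a call that did not hold in 12 of 16 leave-one-out fits.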

How the results depend on the processing

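For the combination against control 5 peptide genes were called under every alternative run except 1 fit leaving out a library, where it was 6 (nlp-27 without control replicate 1). For curcumin against control 2 genes were called, 1 with library size alone (nlp-29 lost), 2 with only the groups compared (1 of them another gene), 4 with all genes having at least 1 read (nlp-31 and nlp-34 added), and 1 to 3 when 1 library was left out. For sulforaphane against control 1 gene was called, 3 with all genes having at least 1 read (cnc-4 higher and nlp-34 lower added), 2 with only the groups compared and 2 without combination replicates 3 and 4 (cnc-4 added), and 1 in every fit leaving out 1 library. Adding sulforaphane to curcumin gave 3 genes (2 to 3 with 1 library left out, 2 with the DESeq2 Wald test, 2 without combination replicates 3 and 4, 4 with all genes having at least 1 read), adding curcumin to sulforaphane 5 (5 with 1 left out, 3 without combination replicates 3 and 4), and curcumin against sulforaphane 4 (3 to 4). The interaction call of nlp-34 went to 0 genes with DESeq2 size factors (adjusted p 0.0509), library size alone (0.0533), the DESeq2 Wald test (0.0857) and without combination replicates 3 and 4 (0.361), and to 0 to 1 when 1 library was left out; in the fits with 0, 1 to 3 genes had an unadjusted p under 0.05. For these losses the cause was not tested. No called change of a peptide gene turned its sign. Changes not called in either fit were not compared by sign.

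Groups share replicate numbers, but the titles do not say that a number marks a shared batch. Residuals of same-numbered libraries correlated at 0.109 on average (12 of 24 pairs over 0.1), and a library matched its own number best in 39 of 48 comparisons, a hint from the data only. With the replicate block the curcumin call of nlp-34 passed (log2 0.71, adjusted p 0.0401). The number of called peptide genes was within 1.5 times the main one in all 7 contrasts. Reads per gene limit nlp-30, cnc-1 and nlp-33.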
